A study of Rattus norvegicus with 4 samples.

Results

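The transcripts described here are 35 genes of mitochondrial fuel use in neonatal rat heart muscle cells, 21 for fatty acid oxidation and 14 for the tricarboxylic acid (TCA) cycle. They were taken by name from a list, and all 35 were found among the 15731 genes with deposited values. The symbol of Idh3b differs from the list in its capitals and was matched ignoring them.

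Ventricular cardiomyocytes were isolated from wild-type Wistar rats labelled as post natal day 1 and transfected with a mimic of 1 of the 3 miRNAs of the miR-106b~25 cluster. The mimics, named for the human miRNAs, were hsa-miR-106b-5p (miR-106b below), hsa-miR-93-5p (miR-93) and hsa-miR-25-3p (miR-25). The control culture received a mimic of cel-miR-67, a worm miRNA. Each mimic has 1 library, made from RNA taken 72 h after transfection, so no difference below has a replicate check and no p-value is given. The labels state the mimic dose as 25 nM in the description of the treatment and as 25 mM in that of the RNA extraction. The comparisons ask which transcripts each miRNA raises or lowers against the control.

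Fatty acids enter the cardiomyocyte through carriers such as CD36, are activated to acyl-CoA, pass into the mitochondrion on carnitine and are shortened stepwise to acetyl-CoA. The TCA cycle oxidises this acetyl-CoA, and that from pyruvate, to carbon dioxide and passes the electrons to the respiratory chain. The adult heart draws most of its energy from fatty acids, while the fetal heart relies more on glucose and lactate, and the genes of both pathways rise as the heart matures after birth.

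A miRNA recognises its targets mainly through its seed, bases 2 to 8, so the mature rat sequences of the 3 cluster members are shown to compare their seeds, which are in capitals. They were taken from RefSeq (GRCr8), run 5′ to 3′ and lie on the minus strand of chromosome 12 within the gene Mcm7. The rat table holds no cel-miR-67.
rno-miR-106b-5p, chr12:22157103-22157123: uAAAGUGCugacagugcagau
rno-miR-93-5p, chr12:22156894-22156916: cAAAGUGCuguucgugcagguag
rno-miR-25-3p, chr12:22156652-22156673: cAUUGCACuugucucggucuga
miR-106b and miR-93 share 1 seed, and the seed of miR-25 equals theirs at 3 of 7 positions.

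All levels are RPKM (reads per gene, scaled by gene length and by library size), which can be compared between genes and, as the authors scaled them, between libraries. Whole reads behind the RPKM values could be recovered, and a member had between 322 and 25403 reads in a library, so counting error was small. Reads on listed genes came to between 15175139 and 18797178 per library, or 60.4% to 66.9% of the library sizes behind the RPKM values, which are not whole numbers and may include a normalization factor, and genes at 0 numbered between 74 and 198. A log2 fold change below is the log2 ratio of the RPKM with a mimic over that with cel-miR-67, and its 95% exact interval covers counting error only, not differences between cultures. Genes were called upregulated or downregulated past a 1.3-fold ratio in either direction with RPKM above 1.0 in both libraries, and all 35 members passed this level in every comparison.

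In the control library the fatty acid oxidation genes lay between 6.02 RPKM for Cpt1a and 122 RPKM for Hadhb, with a median of 34.3 RPKM. The TCA cycle genes were higher and more spread, from 12.3 RPKM for Ogdh to 463 RPKM for Mdh1, with a median of 78.8 RPKM. The median gene of fatty acid oxidation stood above 89.9% of all listed genes and the median TCA cycle gene above 95.9%. Both pathways were thus read from transcripts in the upper range of these cultures. The lowest fatty acid oxidation genes in the control were Cpt1a, Hadh, Acsl1, Cpt1b and Cpt2.

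**Figure D1:**
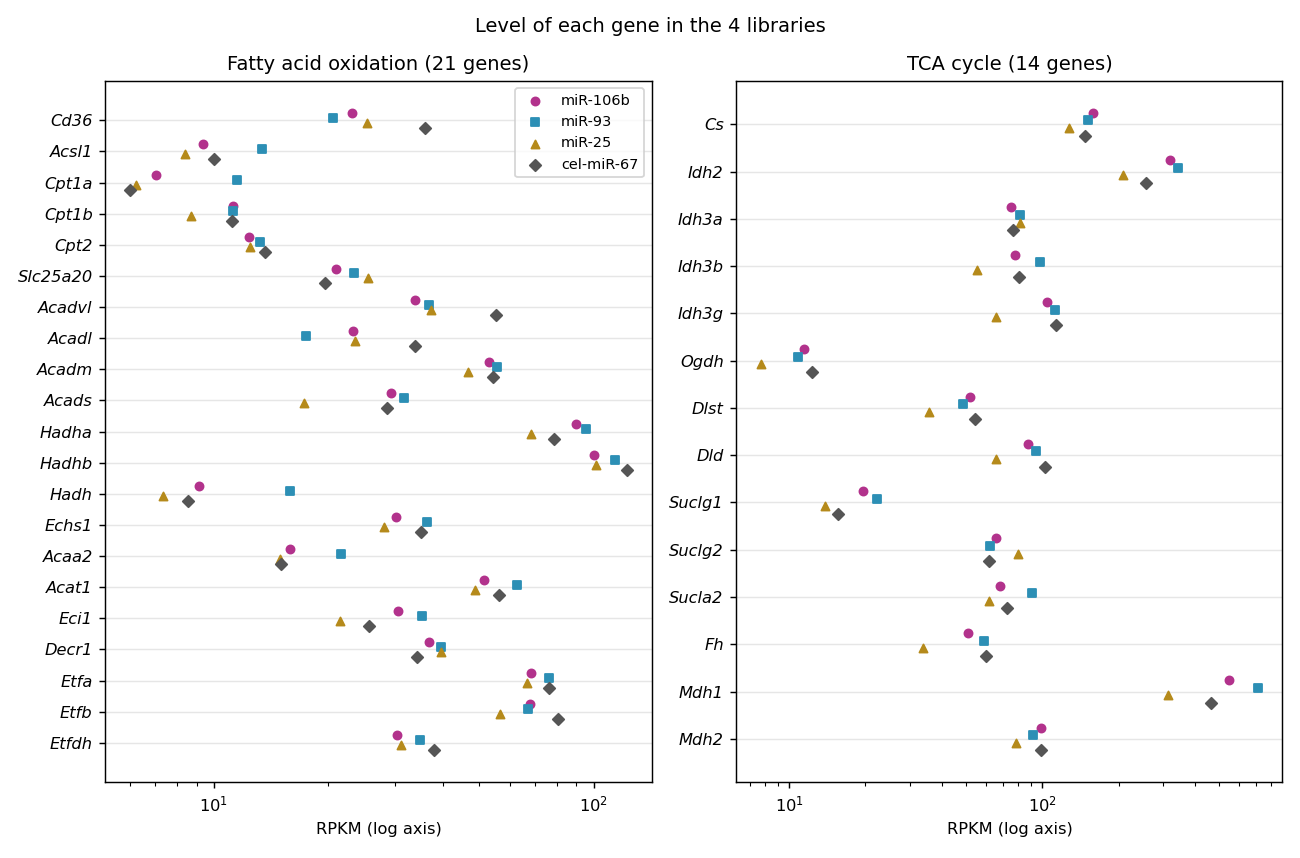
Level of each of the 21 fatty acid oxidation genes and 14 TCA cycle genes in the 4 libraries, in RPKM on a log axis, 1 point per library. In the RPKM as deposited, 12 of the 14 TCA cycle genes had their lowest level with miR-25 (triangles), while Cd36, Acadvl and Acadl were highest with cel-miR-67 (diamonds).

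With miR-106b 3 of the 21 fatty acid oxidation genes (14.3%) were downregulated and none upregulated, against 12.7% of all genes tested lower and 11.9% higher. None of the 14 TCA cycle genes passed the cutoff with miR-106b in either direction, and their median log2 fold change was -0.04, with -0.10 for fatty acid oxidation and -0.00 for all genes tested. With miR-93 5 fatty acid oxidation genes (23.8%) and 3 TCA cycle genes (21.4%) were upregulated, against 15.1% of all genes, and 3 and 0 were downregulated, against 15.6%. The miR-93 medians were 0.05 for fatty acid oxidation, 0.03 for the TCA cycle and -0.00 for all genes. When each library was divided by its own sum of RPKM, 5 TCA cycle genes and 7 fatty acid oxidation genes were upregulated with miR-93, with 25.2% of all genes higher.

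With miR-25 no member was upregulated, while 19.3% of all genes were. The TCA cycle held 7 downregulated genes of 14 (50%), against 22.6% of all genes, and 12 of the 14 had a log2 fold change below 0. Fatty acid oxidation held 5 downregulated genes of 21 (23.8%), a share near that of all genes, and 18 of the 21 were below 0, as were 51.0% of all genes. The medians were -0.44 for the TCA cycle, -0.25 for fatty acid oxidation and -0.01 for all genes. Dividing by the sum of RPKM raised every miR-25 log2 fold change by 0.24. It left 11 fatty acid oxidation genes and 10 TCA cycle genes below 0, and 4 TCA cycle genes and 1 fatty acid oxidation gene downregulated and 1 and 2 upregulated, with 12.9% of all genes lower and 36.5% higher.

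**Figure D2:**
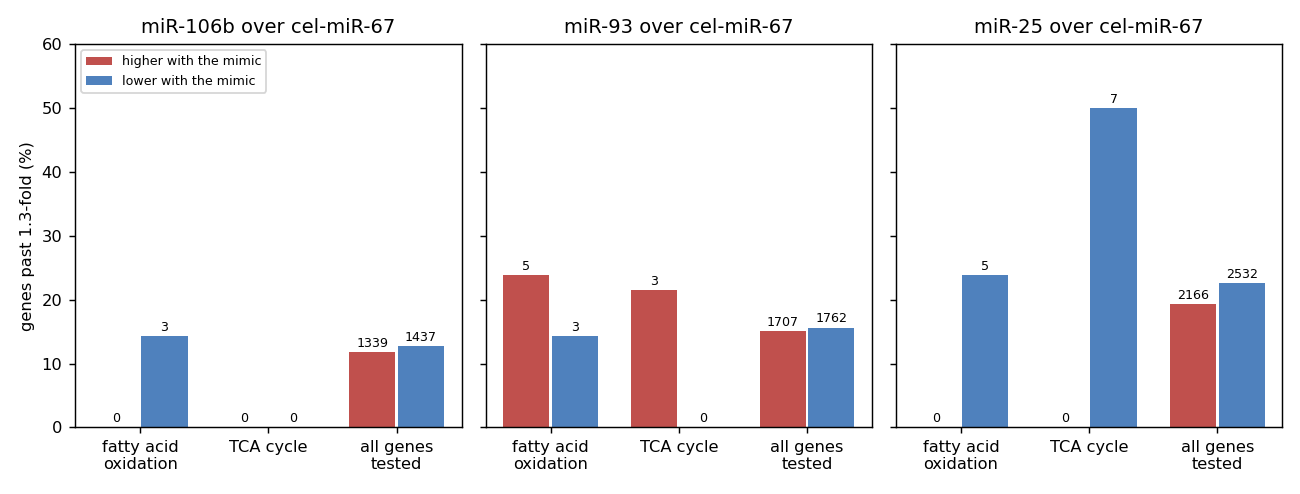
Percent of genes past 1.3-fold with each mimic over cel-miR-67, higher or lower, for fatty acid oxidation, the TCA cycle and all genes tested, with the number of genes above each bar. The bar of downregulated TCA cycle genes with miR-25 (7 of 14) stands above that of all genes, and the TCA cycle has no bar with miR-106b.

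The libraries were also ranked within each gene, without a cutoff. The miR-25 library was the lowest of 4 for 12 TCA cycle genes and 12 fatty acid oxidation genes, and for 36.5% of the 10984 genes above RPKM 1.0 in all libraries. The miR-93 library was the highest for 11 fatty acid oxidation genes and 5 TCA cycle genes, and for 22.9% of all such genes. These ranks and shares rest on the RPKM as deposited and were not computed after scaling by the sum of RPKM. That scaling raises the log2 fold changes with miR-25 by 0.24 and with miR-93 by 0.15, so the ranks depend on it.

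Among the genes of uptake and activation, Cd36, the main fatty acid carrier of the heart cell membrane, was highest in the control. It had 23.1 RPKM under miR-106b, 20.6 under miR-93, 25.3 under miR-25 and 35.8 under cel-miR-67. The log2 fold changes were -0.63 (95% interval -0.68 to -0.59), -0.80 (-0.84 to -0.75) and -0.50 (-0.55 to -0.46), so Cd36 was downregulated in each comparison, all of which share the control library. Acsl1, the long-chain acyl-CoA synthetase of the heart, stood out with miR-93, with 13.4 RPKM against 9.35 with miR-106b, 8.42 with miR-25 and 10.0 in the control. Its log2 fold change was 0.42 (0.30 to 0.53) with miR-93, -0.10 (-0.22 to 0.02) with miR-106b and -0.25 (-0.38 to -0.12) with miR-25.

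Entry into the mitochondrion is controlled by carnitine palmitoyltransferase 1, for which Cpt1a encodes the liver form, prominent in the fetal heart, and Cpt1b the muscle form. Cpt1a had 7.04 RPKM under miR-106b, 11.5 under miR-93, 6.24 under miR-25 and 6.02 under cel-miR-67, and the miR-93 library stood apart from the other 3. The log2 fold change of Cpt1a with miR-93 was 0.93 (0.79 to 1.07), the highest of all 35 genes in that comparison, and it was 0.22 (0.07 to 0.38) with miR-106b and 0.05 (-0.11 to 0.21) with miR-25. Cpt1b did not pass the cutoff with any mimic, with 11.2, 11.2, 8.72 and 11.1 RPKM in the same order of libraries. Cpt2, the transferase of the inner membrane, lay between 12.4 and 13.6 RPKM in all libraries. Slc25a20, the carnitine carrier, was at 19.7 RPKM with cel-miR-67 and 25.5 with miR-25, a log2 fold change of 0.37 (0.24 to 0.50) that stayed just inside the cutoff.

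The acyl-CoA dehydrogenases open each round of shortening and divide the chain lengths among them. Acadvl, for very long chains, had 33.8, 36.8, 37.3 and 55.2 RPKM under miR-106b, miR-93, miR-25 and cel-miR-67. The control was again the highest, and the log2 fold changes were -0.71 (-0.79 to -0.63), -0.58 (-0.67 to -0.50) and -0.56 (-0.64 to -0.48). Acadl, for long chains, had 23.2, 17.5, 23.5 and 33.9 RPKM, and the log2 fold changes were -0.55 (-0.67 to -0.42), -0.96 (-1.09 to -0.82) and -0.53 (-0.66 to -0.40). Acadl with miR-93 was the lowest fold change of any member. Acadvl, Acadl and Cd36 were below the cutoff in each comparison, and since a single control library enters all of them, a high value in that library cannot be told apart from a fall with each mimic. After scaling by the sum of RPKM these genes no longer passed the cutoff with miR-25, at -0.33 for Acadvl, -0.29 for Acadl and -0.26 for Cd36.

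The dehydrogenases for shorter chains behaved otherwise. Acadm, for medium chains, lay between 46.7 RPKM with miR-25 and 55.6 with miR-93 and did not pass the cutoff with any mimic. Acads, for short chains, had 29.2, 31.6, 17.2 and 28.5 RPKM under miR-106b, miR-93, miR-25 and cel-miR-67, and only the miR-25 library was low. Its log2 fold changes were 0.04 (-0.08 to 0.15), 0.15 (0.04 to 0.26) and -0.73 (-0.86 to -0.60), the miR-25 value being the lowest of the fatty acid oxidation genes in that comparison.

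Hadha and Hadhb encode the subunits of the trifunctional protein, which carries out the later steps on long chains, and Hadhb was the most abundant fatty acid oxidation transcript. Hadhb had 100.3 RPKM under miR-106b, 114 under miR-93, 101 under miR-25 and 122 under cel-miR-67, and the log2 fold changes were -0.28 (-0.33 to -0.23), -0.10 (-0.15 to -0.05) and -0.27 (-0.32 to -0.22). Hadha had 89.7, 95.3, 68.3 and 78.4 RPKM, and the log2 fold changes were 0.19 (0.14 to 0.24), 0.28 (0.23 to 0.33) and -0.20 (-0.25 to -0.14). Neither subunit passed the cutoff, and with miR-106b and miR-93 they lay on opposite sides of 0.

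For shorter chains the same steps are carried out by separate enzymes. Hadh, the short-chain 3-hydroxyacyl-CoA dehydrogenase, was high with miR-93, at 15.9 RPKM against 9.14 with miR-106b, 7.34 with miR-25 and 8.56 in the control. The log2 fold change of Hadh was 0.89 (0.70 to 1.09) with miR-93, 0.09 (-0.12 to 0.31) with miR-106b and -0.22 (-0.45 to 0.00) with miR-25. Acaa2, the thiolase that releases acetyl-CoA, had 21.6 RPKM with miR-93 and 15.9, 14.9 and 15.1 with miR-106b, miR-25 and cel-miR-67. Thus Acaa2 was upregulated with miR-93 at 0.52 (0.38 to 0.66), beside 0.08 (-0.07 to 0.22) with miR-106b and -0.01 (-0.17 to 0.14) with miR-25. The hydratase Echs1 lay between 28.0 and 36.3 RPKM and the acetoacetyl-CoA thiolase Acat1 between 48.7 and 62.8 RPKM, and neither passed the cutoff with any mimic.

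Unsaturated chains need the isomerase Eci1 and the reductase Decr1. Eci1 had 30.5, 35.2, 21.5 and 25.6 RPKM under miR-106b, miR-93, miR-25 and cel-miR-67, highest with miR-93 and lowest with miR-25. Its log2 fold change was 0.46 (0.34 to 0.59) with miR-93, 0.25 (0.13 to 0.38) with miR-106b and -0.25 (-0.39 to -0.11) with miR-25. Decr1 lay between 34.3 RPKM with cel-miR-67 and 39.6 with miR-25, inside the cutoff with each mimic.

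The electrons of the acyl-CoA dehydrogenases pass through the electron transfer flavoprotein (Etfa, Etfb) and its dehydrogenase (Etfdh) to the respiratory chain. Etfb had 68.0 RPKM under miR-106b, 67.1 under miR-93, 56.7 under miR-25 and 80.6 under cel-miR-67. It was downregulated with miR-25 at -0.51 (-0.61 to -0.40) and within the cutoff with miR-106b at -0.24 (-0.34 to -0.15) and miR-93 at -0.26 (-0.36 to -0.16). Etfb was also inside the cutoff with miR-25 after scaling by the sum of RPKM, at -0.27. Etfa lay between 66.8 and 76.4 RPKM and Etfdh between 30.4 and 38.0 RPKM, and neither passed the cutoff.

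**Figure D3:**
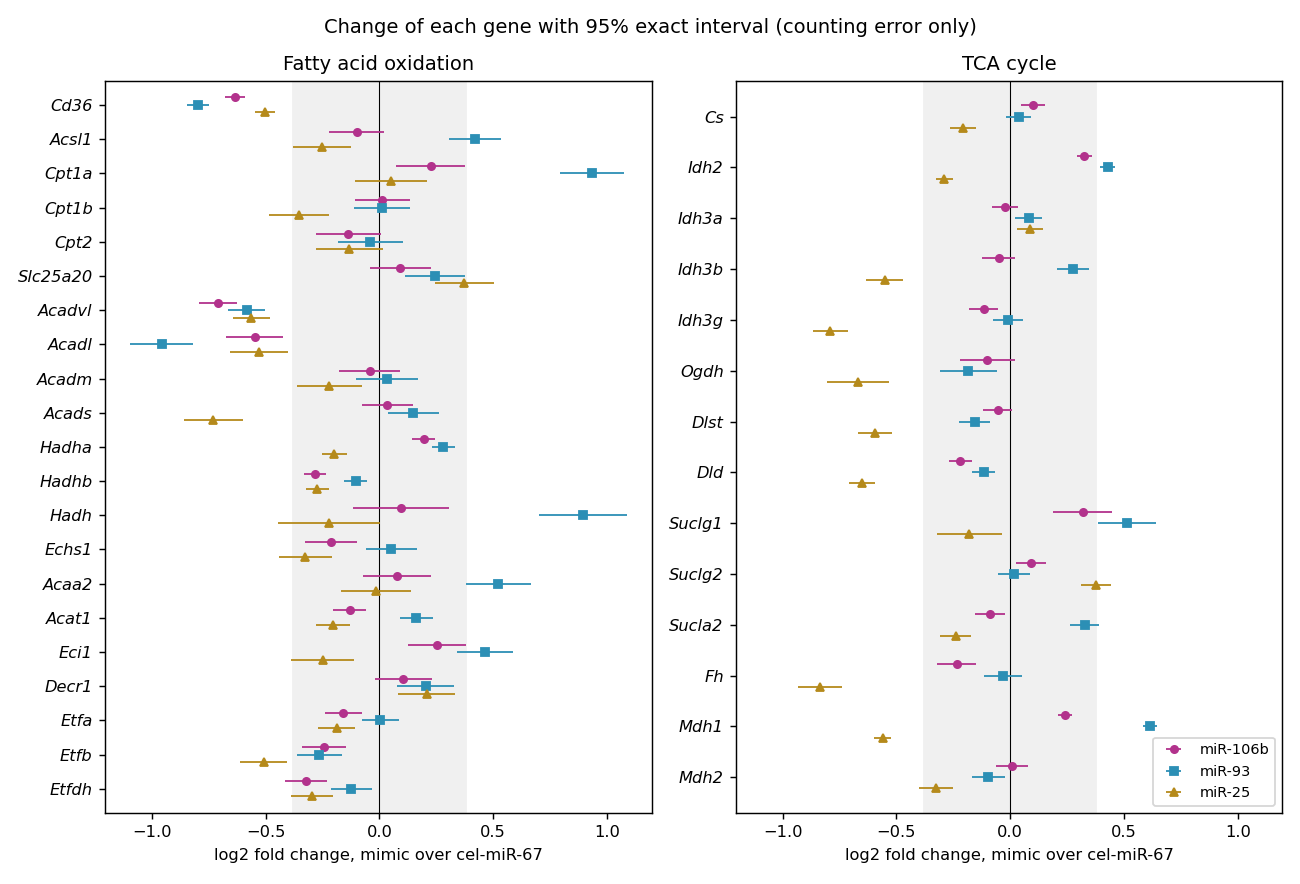
Log2 fold change of each gene with each mimic over cel-miR-67, with its 95% exact interval for counting error, and the range within 1.3-fold shaded. Cpt1a, Hadh, Acaa2, Eci1 and Acsl1 lie past the shaded range with miR-93 alone, Cd36, Acadvl and Acadl lie below it with each mimic, and 7 TCA cycle genes lie below it with miR-25.

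At the entry of the TCA cycle, Cs, the citrate synthase that joins acetyl-CoA to oxaloacetate, varied little. It had 158 RPKM under miR-106b, 151 under miR-93, 127 under miR-25 and 147 under cel-miR-67, and the log2 fold changes were 0.10 (0.05 to 0.15), 0.04 (-0.02 to 0.09) and -0.21 (-0.26 to -0.15). Isocitrate is oxidised by the NADP enzyme Idh2 and by the NAD enzyme of the subunits Idh3a, Idh3b and Idh3g. Idh2 had 320, 344, 209 and 256 RPKM in the same order of libraries. It was upregulated with miR-93 at 0.43 (0.39 to 0.46), and its values of 0.32 (0.29 to 0.36) with miR-106b and -0.29 (-0.33 to -0.25) with miR-25 stayed within the cutoff.

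The 3 subunits of the NAD enzyme were not alike with miR-25. Idh3g, a regulatory subunit, had 104, 112, 65.4 and 113 RPKM under miR-106b, miR-93, miR-25 and cel-miR-67. Its log2 fold change with miR-25 was -0.79 (-0.87 to -0.71), beside -0.12 (-0.18 to -0.05) with miR-106b and -0.01 (-0.07 to 0.06) with miR-93. Idh3b, the other regulatory subunit, had 78.1, 98.0, 55.2 and 80.9 RPKM, lowest with miR-25 as well. Its log2 fold changes were -0.05 (-0.12 to 0.02), 0.28 (0.21 to 0.35) and -0.55 (-0.63 to -0.47). Idh3a, the catalytic subunit, lay between 75.5 and 81.6 RPKM in all 4 libraries, with a log2 fold change of 0.09 (0.03 to 0.15) with miR-25.

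The 2-oxoglutarate dehydrogenase complex consists of Ogdh, Dlst and Dld, and all of its genes were downregulated with miR-25 and within the cutoff with the other mimics. Ogdh, the decarboxylating subunit, had 11.5, 10.8, 7.75 and 12.3 RPKM under miR-106b, miR-93, miR-25 and cel-miR-67, and the log2 fold changes were -0.10 (-0.22 to 0.02), -0.18 (-0.31 to -0.06) and -0.67 (-0.81 to -0.53). Dlst, the succinyl transferase, had 52.0, 48.5, 35.8 and 54.1 RPKM, with -0.06 (-0.12 to 0.01), -0.16 (-0.22 to -0.09) and -0.59 (-0.67 to -0.52). Dld, the lipoamide dehydrogenase that this complex shares with pyruvate dehydrogenase, had 88.1, 94.6, 65.3 and 103 RPKM, with -0.22 (-0.27 to -0.17), -0.12 (-0.17 to -0.07) and -0.65 (-0.71 to -0.60). Within the complex the shares of summed RPKM hardly differed between libraries, at 58.1% to 61.4% for Dld, 31.5% to 34.3% for Dlst and 7.05% to 7.58% for Ogdh.

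Succinate-CoA ligase pairs the common subunit Suclg1 with a GTP-forming subunit, Suclg2, or an ATP-forming one, Sucla2. Suclg1 had 19.5, 22.3, 13.8 and 15.7 RPKM under miR-106b, miR-93, miR-25 and cel-miR-67, high with the mimics of the shared seed. It was upregulated with miR-93 at 0.51 (0.38 to 0.64), and lay at 0.32 (0.19 to 0.45) with miR-106b and -0.18 (-0.32 to -0.04) with miR-25. Suclg2 was highest with miR-25, at 80.1 RPKM against 61.7 to 65.8 in the other libraries, a log2 fold change of 0.38 (0.31 to 0.44) just inside the cutoff. Sucla2 was highest with miR-93, at 91.2 RPKM against 61.6 to 72.7, a log2 fold change of 0.33 (0.26 to 0.39).

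Fh, the fumarase, had the lowest log2 fold change of the 14 genes. Its level was 51.0, 58.7, 33.7 and 60.1 RPKM under miR-106b, miR-93, miR-25 and cel-miR-67. The miR-25 library was the low one, and the log2 fold changes were -0.24 (-0.32 to -0.15), -0.03 (-0.12 to 0.05) and -0.84 (-0.93 to -0.74). Mdh1 encodes the cytosolic malate dehydrogenase, which works in the malate-aspartate shuttle, and Mdh2 the mitochondrial enzyme of the cycle itself. Mdh1 had 547 RPKM under miR-106b, 708 under miR-93, 314 under miR-25 and 463 under cel-miR-67. Its log2 fold changes were 0.24 (0.21 to 0.27), 0.61 (0.58 to 0.64) and -0.56 (-0.60 to -0.53), so Mdh1 was upregulated with miR-93 and downregulated with miR-25, the only member past the cutoff in both directions. Mdh2 lay between 78.6 RPKM with miR-25 and 99.0 with miR-106b and did not pass the cutoff with any mimic.

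After scaling by the sum of RPKM, Mdh1 at -0.32, Idh3b at -0.31 and Dlst at -0.36 no longer passed the cutoff with miR-25, while Fh, Idh3g, Ogdh and Dld still did. Under the same scaling Sucla2 and Idh3b passed it upwards with miR-93 and Suclg2 with miR-25.

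Summed over the 14 TCA cycle genes, the RPKM was 1738 under miR-106b, 1976 under miR-93, 1229 under miR-25 and 1614 under cel-miR-67. Mdh1 alone made up 28.7% of the control sum. Without Mdh1 and Idh2 the sums were 871, 923, 706 and 896. As deposited, the excess with miR-93 thus lay mostly in Mdh1 and Idh2, while the deficit with miR-25 was also seen in the other 12. Against the control the log2 ratios of the sums of these 12 were 0.04 with miR-93 and -0.34 with miR-25. Scaling by the sum of RPKM adds 0.15 and 0.24 to them, so both readings depend on the scaling. The fatty acid oxidation genes summed to 754, 834, 695 and 838 RPKM, and the sums with miR-93 and with cel-miR-67 were nearly equal although 8 of the 21 genes passed the cutoff.

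Set directly against each other, the mimics of the shared seed, miR-106b and miR-93, differed past 1.3-fold in 5 fatty acid oxidation genes and 1 TCA cycle gene. Of all genes tested 7.3% were higher and 8.21% lower with miR-93 than with miR-106b. Hadh was higher with miR-93 by 0.80 (0.63 to 0.97) on the log2 scale, Cpt1a by 0.71 (0.59 to 0.83), Acsl1 by 0.52 (0.41 to 0.63), Acaa2 by 0.45 (0.32 to 0.58) and Sucla2 by 0.42 (0.36 to 0.47). Acadl was lower with miR-93 at -0.41 (-0.55 to -0.27).

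The miR-25 library was past 1.3-fold lower than that of miR-106b in 9 TCA cycle genes and 3 fatty acid oxidation genes, and higher in none, with 23% of all genes lower and 22.1% higher. Against miR-93 it was lower in 10 TCA cycle genes and 7 fatty acid oxidation genes, again with 23% of all genes lower and 22.1% higher. In that comparison the miR-25 library had Mdh1 at -1.18 (-1.21 to -1.14) and Hadh at -1.11 (-1.31 to -0.92), the lowest of these ratios. Acadl was the only member past 1.3-fold in the other direction, higher with miR-25 than with miR-93 by 0.43 (0.28 to 0.57).

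These direct ratios also move with the scaling. The shares of all genes past the cutoff were not computed for the scaled ratios, so the counts below stand without them. By the sum of RPKM, miR-25 over miR-106b kept 4 TCA cycle genes lower (Idh2, Idh3g, Fh, Mdh1) and 1 fatty acid oxidation gene lower (Acads), with 1 of each pathway higher. Over miR-93, miR-25 had 9 TCA cycle genes and 7 fatty acid oxidation genes lower and 1 and 2 higher. For miR-93 over miR-106b 3 TCA cycle genes and 5 fatty acid oxidation genes were then higher, and Acadl, at -0.30, no longer passed the cutoff.

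Genes that serve the same step took different shares of their summed RPKM. Cpt1a made up 35.1% of the CPT1 transcripts with cel-miR-67, 38.5% with miR-106b, 41.7% with miR-25 and 50.6% with miR-93, where both forms were at nearly equal levels. Idh3a made up 40.4% of the IDH3 subunits with miR-25 and 27.8% to 29.3% in the other libraries. Suclg2 made up 51.5% of the succinate-CoA ligase subunits with miR-25 and 35.5% to 42.8% elsewhere. Among the acyl-CoA dehydrogenases Acadvl held 32.1% with cel-miR-67 and 24.3% to 29.9% with the mimics. Hadha made up 39.1% of the trifunctional protein transcripts with cel-miR-67 and 47.2% with miR-106b.

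**Figure D4:**
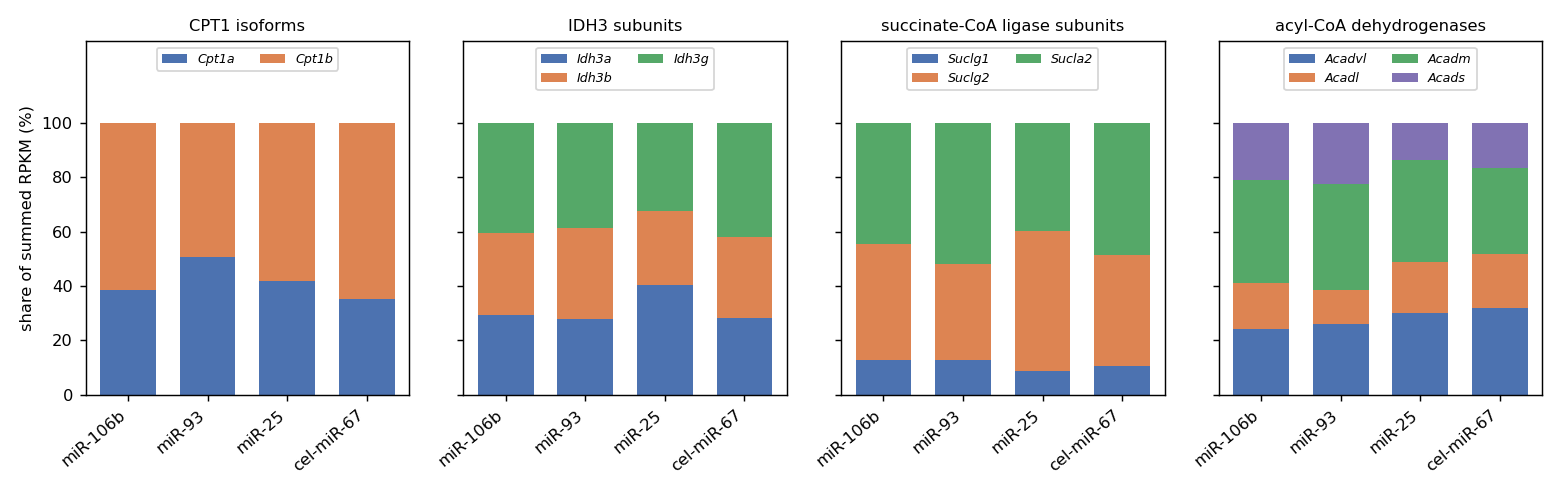
Share of each gene in the summed RPKM of its isoforms or subunits, in percent, in each of the 4 libraries (1 bar each). Cpt1a takes 50.6% of the CPT1 bar with miR-93, and Idh3a (40.4%) and Suclg2 (51.5%) take their largest shares with miR-25.

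A list of 31 other TCA cycle genes covered the steps and feeder reactions outside the 14 members, and 30 were found and tested. With miR-25 15 of the 30 (50%) were downregulated and 4 upregulated, with a median of -0.35, against 22.6% and 19.3% of all genes. Under miR-106b 4 were downregulated and 3 upregulated, against 12.7% and 11.9%, and under miR-93 6 and 5, against 15.6% and 15.1%. After scaling by the sum of RPKM the miR-93 counts were 2 and 7, with 9.63% of all genes lower and 25.2% higher. The subunits of succinate dehydrogenase, which oxidises succinate to fumarate, were looked up after their values were seen. With miR-25 they were at -0.53 for Sdha, -0.61 for Sdhb, -0.50 for Sdhc and -0.77 for Sdhd. After scaling by the sum of RPKM Sdhd (-0.53) still passed the cutoff and the other 3 subunits did not. The list then held 7 downregulated and 11 upregulated genes with miR-25, with 12.9% of all genes lower and 36.5% higher.

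Among the other TCA cycle genes Mpc1, a subunit of the mitochondrial pyruvate carrier, was the lowest with miR-25. It had 107 RPKM under miR-106b, 120 under miR-93, 57.2 under miR-25 and 174 under cel-miR-67. The log2 fold changes were -0.70 (-0.77 to -0.62), -0.53 (-0.60 to -0.46) and -1.60 (-1.69 to -1.51). Mpc1 was highest in the control library, which these comparisons share. Got1, the cytosolic aspartate aminotransferase that works with Mdh1 in the malate-aspartate shuttle, was upregulated in each comparison. Its log2 fold changes were 1.10 (0.98 to 1.21) with miR-106b, 1.05 (0.93 to 1.17) with miR-93 and 0.42 (0.29 to 0.55) with miR-25. The control library, shared by these comparisons, had the lowest Got1 level, at 17.6 RPKM. Pdk2, a kinase that inhibits pyruvate dehydrogenase, was downregulated with miR-106b at -0.65 (-0.89 to -0.41) and with miR-25 at -0.60 (-0.84 to -0.35). The miR-25 value of Pdk2 was inside the cutoff, at -0.36, after scaling by the sum of RPKM.

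Of 35 other genes of fatty acid use 32 were found and 27 tested. Under miR-106b 5 were upregulated and 4 downregulated, against 11.9% and 12.7% of all genes, under miR-93 8 and 6, against 15.1% and 15.6%, and under miR-25 7 and 9, against 19.3% and 22.6%. The medians were -0.07, 0.04 and -0.02. After scaling by the sum of RPKM the counts were 11 and 3 with miR-93 (median 0.19) and 12 and 6 with miR-25 (median 0.21). Of all genes 25.2% were then higher and 9.63% lower with miR-93 (median 0.14). With miR-25 36.5% of all genes were higher and 12.9% lower (median 0.22), so the upward turn was shared by all genes. Lpl, the lipoprotein lipase that frees fatty acids from triglyceride, was downregulated in each comparison, all of which share the control library. Its log2 fold changes were -0.68 (-0.75 to -0.61) with miR-106b, -0.42 (-0.49 to -0.35) with miR-93 and -1.27 (-1.36 to -1.19) with miR-25. The miR-93 value was inside the cutoff, at -0.28, after scaling by the sum of RPKM. Fabp3, the heart fatty acid binding protein, was upregulated with miR-106b at 0.49 (0.45 to 0.53) and downregulated with miR-25 at -0.71 (-0.77 to -0.66). Ucp2, an inner membrane carrier, was upregulated with miR-106b at 0.56 (0.42 to 0.71), miR-93 at 0.64 (0.50 to 0.79) and miR-25 at 0.89 (0.75 to 1.04). The control library, shared by these comparisons, had the lowest Ucp2 level, at 16.4 RPKM.

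The other long-chain acyl-CoA synthetases that were tested were downregulated with miR-93, where Acsl1 was upregulated. Acsl5 was at -0.68 (-0.77 to -0.59), Acsl3 at -0.63 (-0.73 to -0.52) and Acsl4 at -0.41 (-0.51 to -0.31), and with miR-25 Acsl4 was upregulated at 0.75 (0.66 to 0.83). Acsl5 was also downregulated with miR-106b, at -0.43 (-0.51 to -0.35). Acsl4 with miR-93 was inside the cutoff, at -0.27, after scaling by the sum of RPKM. The thioesterase Acot13 was upregulated with miR-93 at 0.87 (0.67 to 1.07) and downregulated with miR-25 at -0.49 (-0.74 to -0.25), the latter inside the cutoff at -0.25 after that scaling. With miR-25 Ivd, a dehydrogenase of leucine breakdown, was downregulated at -1.02 (-1.13 to -0.91).

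Transcription of these pathways in the heart is driven by PPAR and estrogen-related receptors with the coactivator PGC-1. Of 13 such regulators 10 or 11 were tested with each mimic. Under miR-106b 1 was upregulated and 2 downregulated, against 11.9% and 12.7% of all genes. Under miR-93 there were 3 and 2, against 15.1% and 15.6%, and under miR-25 3 and 4, against 19.3% and 22.6%. After scaling by the sum of RPKM the miR-25 counts were 4 and 4, against 36.5% and 12.9%. Only Esrra, Gabpa and Tfam had RPKM above 10 in both libraries, so the other regulators could not be named by the rule of largest changes. Some of them are given here, picked after the values were seen. Esrrg, an estrogen-related receptor, had 3.86 RPKM under miR-106b, 3.32 under miR-93, 2.74 under miR-25 and 6.56 under cel-miR-67, with log2 fold changes of -0.77, -0.98 and -1.26. Ppargc1a, which encodes PGC-1alpha, had 8.67, 9.26, 10.4 and 6.27 RPKM, with 0.47, 0.56 and 0.73. The control library was thus the highest of 4 for Esrrg and the lowest for Ppargc1a. Another estrogen-related receptor, Esrrb, went the other way than Esrrg with miR-25, at 7.52 RPKM against 1.52 in the control, a log2 fold change of 2.30 (1.84 to 2.79). Ppara, the PPAR of fatty acid oxidation, was downregulated with miR-25 at -1.22 (-1.63 to -0.81) and with miR-106b at -0.53 (-0.88 to -0.19).

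The estrogen-related receptor element TNAAGGTCA, searched on both strands of the 300 bases that RefSeq (GRCr8) gives around each start site, was in none of the promoters of the 30 members that could be matched and in 1.2% of all 33469 promoters. A direct repeat of AGGTCA with 1 base between, which can overlap the first motif, was in none of the 30 and in 0.0538% of all promoters. Both motifs were rare among all promoters, so their absence from 30 does not separate the members from other genes.

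In bulk RNA fewer cells of a type and less RNA per cell cannot be told apart, so cell type markers were read beside the pathways. Of 14 cardiomyocyte markers 13 were found and tested. All 13 were downregulated with miR-25 (median -1.07, range -4.47 to -0.42), against 22.6% of all genes. Their summed level was 9350 RPKM with miR-25 against 14553 to 18200 in the other libraries. Scaled by the sum of RPKM, 10 of the 13 were downregulated, without Tnnt2 (-0.24), Actn2 (-0.29) and Pln (-0.19), against 12.9% of all genes. By listed nuclear reads 11 were, against 16.8%. Tnnt2 still had 1750 RPKM with miR-25 (-0.48), while Tnni3 had 15.9 against 351 in the control (-4.47) and Atp2a2 103 against 422 (-2.03). No marker was at 0 in any library. With miR-106b 4 cardiomyocyte markers were downregulated and 1 upregulated (median -0.06), against 12.7% and 11.9% of all genes. With miR-93 the counts were 5 and 2 (median -0.22), against 15.6% and 15.1%. The part of this shift in the miR-25 values of both pathways was not tested.

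Other cells showed their own pattern. Fibroblast markers were downregulated with miR-25 in 8 of 11 tested (median -0.79), against 22.6% of all genes. Lum was upregulated, at 0.87 (0.66 to 1.09). Summed levels were 428 RPKM with miR-25 against 821 to 1084 elsewhere. With miR-106b and miR-93 6 of 11 each were downregulated (medians -0.39 and -0.48), against 12.7% and 15.6% of all genes. After scaling by the sum of RPKM 7 were downregulated and 2 upregulated with miR-25, against 12.9% and 36.5%. With miR-106b and miR-93 5 each were then downregulated, against 11.1% and 9.63%. Macrophage markers summed to 8.54 RPKM with miR-25 and 15.9 to 19.2 elsewhere, and endothelial markers to between 5.75 and 8.56 RPKM in all libraries. Smooth muscle markers were upregulated with miR-25 in 5 of 6 (median 1.44), against 19.3% of all genes, and summed to 2060 RPKM against 591 to 752. Smtn was downregulated, at -0.46. After scaling by the sum of RPKM 5 were upregulated and 0 downregulated, against 36.5% and 12.9%. How far these cells contribute to the values of the 35 genes was not tested.

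**Figure D5:**
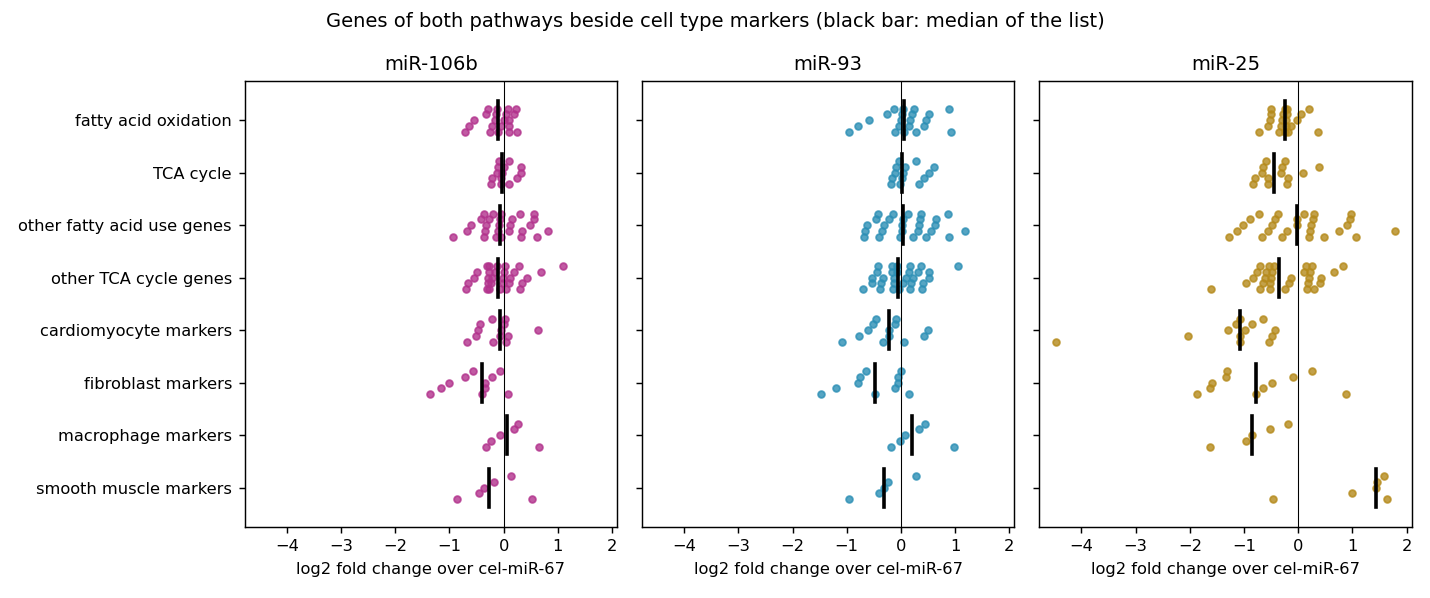
Log2 fold change of each tested gene with each mimic over cel-miR-67, by gene list, with the median of the list as a black bar. With miR-25 the TCA cycle genes centre at -0.44 and the cardiomyocyte markers at -1.07, and with miR-106b both lists centre close to 0.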

How the data were processed

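Single 50-base reads of 4 libraries, 1 per mimic, were checked with FASTQC and trimmed with Cutadapt by the authors, aligned to the Rnor 6.0 rat genome with STAR (version 2.7 in the submitters' processing notes), and the rounded gene counts were converted with the rpkm function of edgeR. The program that counted reads is not given in the sources used here. The authors deposited RPKM values of 15731 genes, and the values given for each sample were identical to those of the series table for all 4 samples.

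Fold changes are ratios of the deposited RPKM values with nothing added. A gene entered a comparison where both its RPKM values were above 1.0, and the cutoff was 1.3-fold, as in the study's results. RPKM values of a gene move in steps of 1 read, and the smallest whole read numbers that fit the steps were found for all 15731 genes (100.0%) within a tolerance of 0.001 reads. A factor common to all reads of a gene cannot be seen, so for a few genes, Acadm probably among them, reads are a minimum and intervals too wide. The 95% Clopper-Pearson intervals come from these reads. The recovery and the intervals were tested on simulated data. The library size behind the RPKM values was smallest for cel-miR-67 and largest for miR-106b. Mitochondrial genes held 4.51% to 6.17% of the reads.

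The 35 members, the lists of other genes and the markers were chosen with earlier results of these data known. Every member was named, with full values for those past the cutoff with at least 1 mimic and the 3 with most RPKM in the control of each pathway. Of the other pathway genes and regulators, the 3 largest rises and falls per mimic with RPKM above 10 in both libraries were named. The Sdh subunits, Esrrg, Esrrb, Ppargc1a, Ppargc1b and Ppara were added after their values were seen. A gene that this rule selects is not reported here. Genes absent under their listed symbol (Acot1, Ucp3, Eci2, Pdha1, Ttn, Pecam1) were not analysed here. Alternatives were an RPKM cutoff of 2.0 and none, a fold cutoff of 1.5, a pseudocount of 1, centring on the median gene, scaling by the sum of RPKM or by reads on listed nuclear genes, and genes beyond counting noise only. Scaling of the other lists and of the ratios between mimics was added after seeing the data. Software was scipy 1.17.1, numpy 2.4.6, matplotlib 3.10.9 and pandas 2.3.3 on Python 3.11.15.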

Additional observations from a re-analysis of the deposited data

Results flagged for a closer look

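Mdh1, the cytosolic malate dehydrogenase, passed the 1.3-fold cutoff in opposite directions, at 0.61 with miR-93 and -0.56 with miR-25 on the log2 scale. With 1 library per mimic this difference was not tested. After scaling by the sum of RPKM Mdh1 was at -0.32 with miR-25 and no longer past the cutoff.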

How the results depend on the processing

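Scaling moved the counts and medians most. Dividing by the sum of RPKM shifted the log2 fold changes of miR-106b by 0.03, of miR-93 by 0.15 and of miR-25 by 0.24, and dividing by reads on listed nuclear genes by 0.07, 0.13 and 0.12, so the median of all genes with miR-25 became 0.22 and 0.11. Under the sum of RPKM the miR-93 medians became 0.20 for fatty acid oxidation and 0.17 for the TCA cycle, with 5 TCA cycle genes upregulated. The miR-25 medians became -0.011 and -0.20, with 2 and 1 genes upregulated and 1 and 4 downregulated. Under listed nuclear reads the TCA cycle median was 0.031 with miR-106b, with 2 genes upregulated, 0.16 with miR-93, with 5 upregulated, and -0.32 with miR-25, with 1 upregulated, while the fatty acid oxidation median was 0.19 with miR-93 and 1 of its genes was upregulated with miR-25. The share of all genes higher and lower with miR-93 became 25.2% and 9.63% under the sum of RPKM and 24.1% and 10.1% under listed nuclear reads. With miR-25 it was 27.5% and 16.8% under listed nuclear reads. Centring on the median gene added 1 upregulated gene to each pathway with miR-25 (Slc25a20 and Suclg2). A fold cutoff of 1.5 left 2 fatty acid oxidation genes and 1 TCA cycle gene upregulated with miR-93 and 1 fatty acid oxidation gene downregulated with miR-25.

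Of the 26 calls of single members, 19 also passed under the sum of RPKM and 26 under listed nuclear reads, and none changed sign under these or under centring or the pseudocount. No count of either pathway moved by more than 1.5 times with an RPKM cutoff of 2.0 or none, with a pseudocount of 1 and with genes beyond counting noise only. No paired analysis was possible because each mimic has 1 library. Leaving out a library was not possible either. Depth limited the members little, and differences between cultures were not measured.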
